A study of Mus musculus with 18 samples.

Results

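The 153 probes described here carried signals at least 2-fold lower in high-KLF4 than in low-KLF4 reprogramming intermediates on day 8. They were chosen by the values themselves: single-symbol probes of the deposited table were taken when the mean log2 signal of the 2 high-KLF4 day 8 arrays was at least 1 below that of the 2 low-KLF4 day 8 arrays, and the probes of Nanog, Fut9, Trh, Zdbf2, Nnat and Cd59a were left out. Of 21789 single-symbol probes, 159 (0.73%) met the threshold and 6 of these carried an excluded name, which left 153 probes of 148 genes. Ldhb, Gkap1, Jph1, Siva1 and Cd80 each had 2 member probes. Because the day 8 arrays chose the members, their day 8 values are given as a description with no test, and tests were run only on arrays that the choice did not use. In the opposite direction, 576 single-symbol probes reached a 2-fold excess in high-KLF4.

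The series holds 18 Affymetrix Mouse Gene 1.0 ST arrays in 12 groups. Mouse embryonic fibroblasts (MEFs) carrying ROSA-rtTA and Nanog-GFP received a piggyBac (PB-TAC) cassette together with transposase, and doxycycline (1 µg/mL) in ES cell medium switched the cassette on. The OKMS cassette encodes an N-terminally shorter KLF4 and gives low-KLF4 reprogramming, whereas OK+9MS gives high-KLF4 reprogramming. In the paper these names refer to the level of KLF4 protein. The cells were sorted for the mCherry reporter of the cassette on days 2, 4, 8 and 18. There was 1 array per cassette on days 2, 4 and 18 and 2 on day 8. Each array is thus a sorted mixture of cells and not a clone. In the paper's scheme cultures were passaged on day 8, and fully reprogrammed cells silenced mCherry. The day 18 arrays therefore hold cells that had not silenced the cassette. The references were 2 induced pluripotent stem cell (iPSC) clones from OKMS (A7 and A9), 2 from OK+9MS (A10 and H10), 2 arrays of the mouse embryonic stem cell (mESC) line 1A2 and 2 arrays of primary keratinocytes, isolated from newborn pups at postnatal day 2. The second arrays of the day 8, mESC and keratinocyte groups came from independent experiments. In bulk samples of this kind, fewer cells of a type and less RNA per cell cannot be told apart.

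KLF4 is a zinc finger transcription factor that binds CACCC-type elements, acts with OCT4 and SOX2 in pluripotent cells and, on its own, drives epithelial differentiation. During reprogramming of fibroblasts the mesenchymal programme is lost and an epithelial one is gained before the pluripotency network is switched on. Genes that differ between the intermediates can therefore belong to the donor cell, a passing state, the pluripotent end state or epithelium. The reference arrays stand for the pluripotent end state and for epithelium only, since no MEF array was in the series.

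Array signals, on the linear scale of the deposited table, had medians between 139 and 162 on the 18 arrays. The groups carried the markers of their labels: the summed signal of 8 keratinocyte markers was 42215 and 44090 in the keratinocytes and between 624 and 721 in clones and mESCs, and that of 12 pluripotency markers was between 36422 and 41884 in clones and mESCs against 1094 and 1124 in keratinocytes. On day 8 the pluripotency sum was 3347 and 3564 in low-KLF4 and 3596 and 4219 in high-KLF4, with 3 of 12 genes lower in high-KLF4. The keratinocyte sum was 1089 and 1215 in low-KLF4 and 8698 and 12442 in high-KLF4, with 1 of 8 genes lower. The summed signal of 12 fibroblast markers separated the experiments rather than the cassettes, at 49451 and 45792 on the first low-KLF4 and high-KLF4 arrays of day 8 and 15063 and 16160 on the second. The Klf4 probe was somewhat dimmer in high-KLF4 on day 8, at 793 and 906 against 974 and 1038 in low-KLF4. Single high-KLF4 arrays of the earlier and later times were dimmer too, at 820, 658 and 831 against 1027, 763 and 978 (days 2, 4 and 18). These are RNA signals, whereas the cassette names refer to KLF4 protein, which the arrays do not measure. Whether the Klf4 probe reads the cassette transcript is not known.

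The day 8 difference of the members was also unequal between the experiments. All 153 members were lower in high-KLF4 in both, and in 148 both high-KLF4 arrays lay below both low-KLF4 arrays, against 18.4% of all single-symbol probes, a count that the choice of members largely fixes. The median log2 difference (high-KLF4 minus low-KLF4) of the members was -0.95 on the first arrays and -1.74 on the second, and 143 of 153 differed more on the second. At least 2-fold differences were found for 70 members on the first arrays, 150 on the second and 67 on both. The excess lay on the low-KLF4 side: the second low-KLF4 array was above the first for 139 members, by a median of 0.69 on the log2 scale, whereas the second high-KLF4 array was above the first for 69 members, with a median of -0.04. Over all single-symbol probes these shares were 52.1% and 49.8%. With the second low-KLF4 array left out, 76 of the 153 members remained at least 2-fold lower, and without the first 149 did. Without the first or the second high-KLF4 array 128 and 126 did. The part that fibroblast content, or any other property of the second experiment, played in this was not tested.

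**Figure D1:**
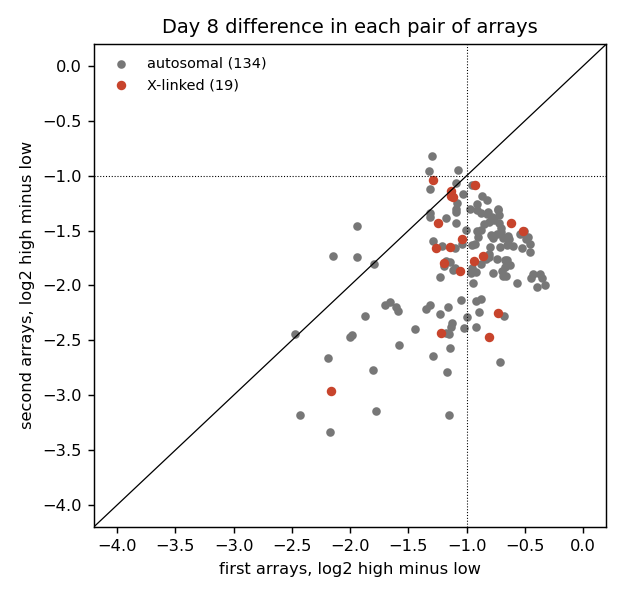
Log2 difference in signal between high-KLF4 and low-KLF4 on day 8 on the first arrays (x axis) and on the second, independent arrays (y axis), 1 point per member, X-linked members in red. The solid line marks equal differences and the dotted lines a 2-fold difference; 143 of 153 points lie below the solid line, and 67 are at least 2-fold lower on both axes.

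The promoters of 4 members with contrasting courses are printed first, since KLF4 is the factor that differs between the cassettes. Zic5 had the largest day 8 difference, Nr0b1 the largest difference on days 2 and 4, Shisa3 was brighter in intermediates of both cassettes than in any reference, and Pllp was brightest in low-KLF4 on days 4 and 8. The windows run from 250 bases before to 50 bases after the RefSeq start, 5′ to 3′ on the strand of the gene in build GRCm38.p6, and capitals mark the KLF core CACCC or its complement GGGTG.
Zic5 (chr14:122465609-122465908, minus strand): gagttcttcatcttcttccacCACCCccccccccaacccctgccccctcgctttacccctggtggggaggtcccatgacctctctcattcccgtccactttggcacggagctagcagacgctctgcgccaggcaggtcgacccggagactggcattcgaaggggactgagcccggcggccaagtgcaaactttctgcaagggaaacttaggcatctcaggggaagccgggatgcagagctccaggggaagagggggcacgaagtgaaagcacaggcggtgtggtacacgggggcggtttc
Nr0b1 (chrX:86191525-86191824, plus strand): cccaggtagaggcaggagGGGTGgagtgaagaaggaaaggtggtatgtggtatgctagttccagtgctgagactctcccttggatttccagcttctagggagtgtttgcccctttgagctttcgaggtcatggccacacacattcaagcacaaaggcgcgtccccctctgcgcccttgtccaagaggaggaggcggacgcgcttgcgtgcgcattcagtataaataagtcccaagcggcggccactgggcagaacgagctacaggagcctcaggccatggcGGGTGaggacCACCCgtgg
Shisa3 (chr5:67607633-67607932, plus strand): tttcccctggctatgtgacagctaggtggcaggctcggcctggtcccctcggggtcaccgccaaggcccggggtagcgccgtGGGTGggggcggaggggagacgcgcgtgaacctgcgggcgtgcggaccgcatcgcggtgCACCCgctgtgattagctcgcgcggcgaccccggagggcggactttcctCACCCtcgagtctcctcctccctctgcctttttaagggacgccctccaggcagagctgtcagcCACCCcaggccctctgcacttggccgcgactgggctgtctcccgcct
Pllp (chr8:94696193-94696492, minus strand): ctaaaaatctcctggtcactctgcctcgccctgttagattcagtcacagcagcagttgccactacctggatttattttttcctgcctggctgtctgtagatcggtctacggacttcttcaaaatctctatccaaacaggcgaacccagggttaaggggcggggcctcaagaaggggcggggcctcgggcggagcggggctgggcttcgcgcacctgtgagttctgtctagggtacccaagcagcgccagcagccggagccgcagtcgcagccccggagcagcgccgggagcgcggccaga
The window of Shisa3 held 4 KLF cores, that of Nr0b1 3, that of Zic5 1 and that of Pllp none. These 4 windows therefore did not all hold the core, and they were picked for their courses. A match to these letters is a description of the window and not evidence of binding.

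Across the members the KLF core occurred at a share close to that of all windows. A window was found for 112 of the 148 member genes, 148 windows in all because some genes have several starts, and CACCC or GGGTG occurred in 97 of them (65.5%) against 61% of 19116 windows of all single-symbol genes and 75.1% of 535 windows of genes at least 2-fold higher in high-KLF4 on day 8. The E-box CACCTG, the letters bound by SNAIL and ZEB repressors, occurred in 26.4% of member windows, 19.6% of all and 32.1% of the higher genes. The OVOL core CCGTTA occurred in 4.05% of member windows and 3.11% of all, the TCF/LEF letters CTTTGAT or CTTTGAA in 8.78% and 7.38%, the octamer ATGCAAAT in 2.03% and 1.59%, and the SOX letters ACAAAG in 18.9% and 16.5%. Both strands were searched, none of these motifs contains another, and the median GC content was 58.5% in member windows and 57.7% in all. No share was tested.

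The largest day 8 differences belonged to genes of several kinds. Zic5, a zinc finger factor of neural patterning, had day 8 signals of 557 and 891 in low-KLF4 and 103 and 98.4 in high-KLF4, a 6.99-fold difference in the means. Cadm1, an immunoglobulin-like adhesion molecule, had signals of 979 and 1521 against 217 and 151 (6.75-fold). Fndc3c1, an X-linked gene with fibronectin type III domains, had signals of 314 and 1002 against 70.1 and 128 (5.92-fold). The cassettes did not overlap for these 3, which was a condition for naming the largest differences, and the 2 low-KLF4 arrays of Fndc3c1 lay far apart.
Cyyr1, a membrane protein with a cysteine- and tyrosine-rich region, had day 8 signals of 352 and 1269.9 in low-KLF4 against 103 and 143 in high-KLF4. Pllp (plasmolipin), a myelin-associated membrane protein, had signals of 841 and 1160.5 against 151 and 213. Bcl11a, a zinc finger repressor of fetal globin and a regulator of lymphoid and neural development, had signals of 916 and 866 against 200.1 and 137. The low-KLF4 arrays thus agreed closely for Bcl11a, differed more for Pllp and lay far apart for Cyyr1.
Pcx (pyruvate carboxylase) had day 8 signals of 1019 and 1572 in low-KLF4 against 292 and 231 in high-KLF4, and Lrmp, a membrane protein of lymphoid cells, 316 and 419.5 against 78.7 and 75.6. Tspan12, a tetraspanin of Norrin signalling, had signals of 282 and 387 against 71.4 and 70.7. Neurod1, a proneural factor, closed the 10 largest, with signals of 80 and 307 in low-KLF4 against 36 and 33.8 in high-KLF4. Its difference therefore came mostly from the second low-KLF4 array.

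**Figure D2:**
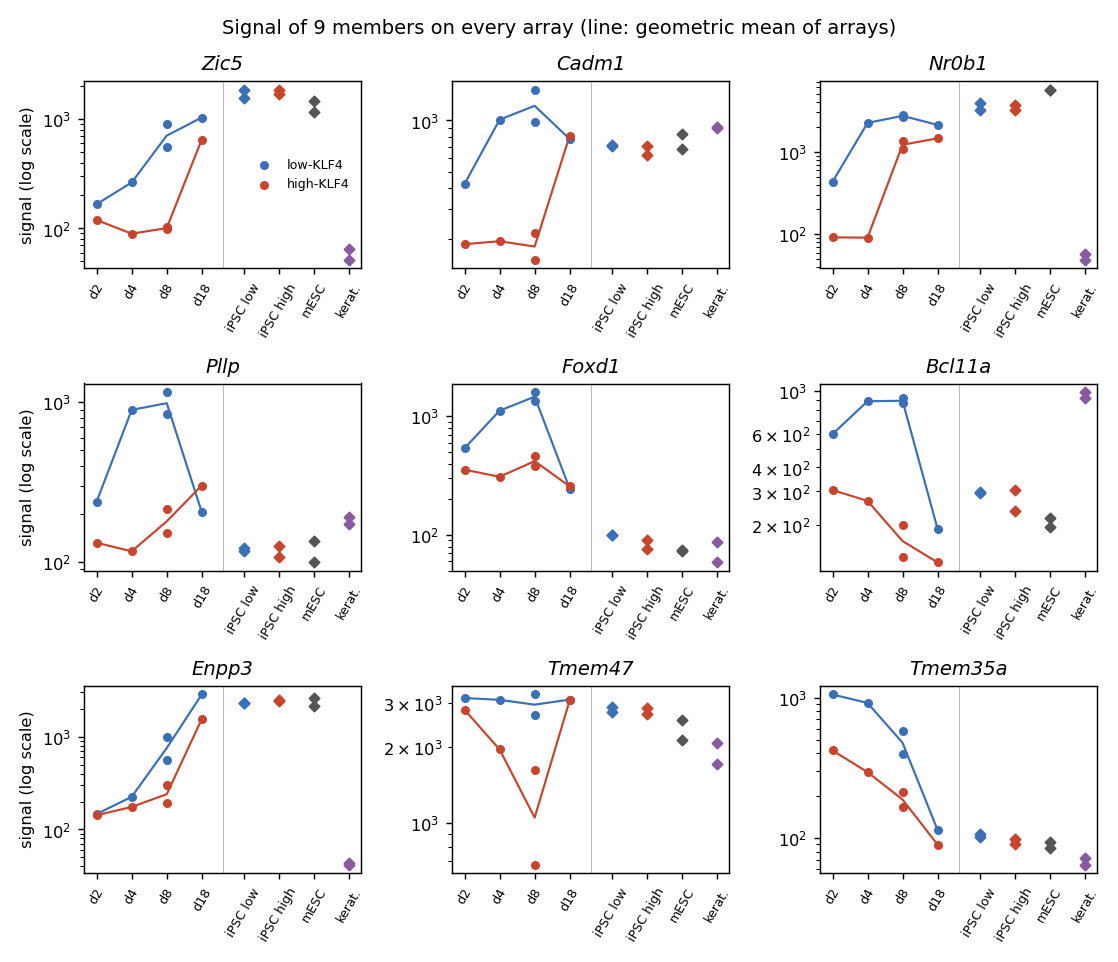
Signal (log scale) of 9 members on every array: circles are the intermediates by day, joined through the geometric mean of the arrays, and diamonds are the 2 arrays of each reference group (low-KLF4 blue, high-KLF4 red, mESC grey, keratinocyte purple). Zic5, Nr0b1 and Enpp3 were high in clones and mESCs, Pllp, Foxd1 and Tmem35a were low in all references, Bcl11a was high in keratinocytes, and Tmem47 was lowest on the second high-KLF4 array of day 8.

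By role, 118 of the 148 genes fell into 6 lists and 30, Zic5 and Neurod1 among them, were in none. Transcription and RNA regulation held 27 genes, secreted or surface signalling, guidance and adhesion 31, metabolism and transport 27, neural receptors, synapse and neuropeptides 16, chromatin, cell cycle, DNA repair and cell death 10, and genes known from immune cells 7. The lists were drawn from the members, so that membership itself says nothing of their direction.
Among the regulators, Nkx2-9, a ventral neural tube homeobox factor, had day 8 signals of 699.9 and 1287 in low-KLF4 against 191 and 265 in high-KLF4. Zic2, the neighbour of Zic5 and a factor of forebrain patterning and primed pluripotency, had signals of 586 and 705 against 186 and 159. Foxd1, a forkhead factor of stromal and retinal precursors, had signals of 1604 and 1338 against 461 and 382. These 3 did not overlap between cassettes, which the choice of members largely fixes.
Of the neural receptor and synapse genes, Sv2b, a synaptic vesicle glycoprotein, had day 8 signals of 184 and 469 in low-KLF4 against 75.3 and 74.9 in high-KLF4. Gabra2, a GABA-A receptor subunit, had signals of 223 and 182 against 50.2 and 54.7, and Ttyh1, a chloride channel family member of neural precursors, 573 and 1418 against 176 and 313. Neuron markers did not move with them as a list: 4 of 10 neuron markers were lower in high-KLF4 on day 8. The summed signal of the neuron markers was 8389 and 8468 in low-KLF4 and 11437 and 13584 in high-KLF4. Of 8 neural progenitor markers 7 were lower in high-KLF4 on day 8, by a small median log2 difference of -0.195. Their summed signal was 3098 and 3145 in low-KLF4 and 2831 and 3149 in high-KLF4, and their median difference on day 4 was 0.077.
Metabolic members included Pip5k1b, a kinase that makes phosphatidylinositol 4,5-bisphosphate, with day 8 signals of 226 and 489 in low-KLF4 against 75.1 and 104 in high-KLF4. Ldhb, the heart-type subunit of lactate dehydrogenase, had 777 and 827 against 346 and 119.6 on its first probe and 709.5 and 728 against 321 and 122 on its second. Both Ldhb probes gave the same picture, an even low-KLF4 level and a second high-KLF4 array well below the first.
Genes known from immune cells were Lrmp, Enpp3, an ectonucleotide pyrophosphatase of basophils (565 and 1002 against 299 and 192), Elmo1, an engulfment adaptor (174 and 488 against 87.5 and 99.9), Cd80, H2-Eb1, Pim2 and Irak1bp1. Immune cell markers did not move with them, since 4 of 9 were lower in high-KLF4 on day 8 and their summed signal was 888 and 1378 in low-KLF4 and 1147 and 1828 in high-KLF4. Among genes of chromatin and survival, Usp44, a deubiquitinase of the spindle checkpoint, had signals of 114 and 244 against 56.1 and 46.7, Bcl2, the antiapoptotic protein, 979 and 2332 against 434 and 680.2, and Pimreg, a mitotic regulator, 606 and 1074 against 295 and 348.

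Whether the difference was present at other times was asked on the 6 arrays of days 2, 4 and 18, none of which had chosen the members. On day 2, 125 of 153 members were lower in high-KLF4 (43.6% of all single-symbol probes) with a median log2 difference of -0.21, and 4 were at least 2-fold lower (0.0688% of all). On day 4, 148 were lower (56.5% of all) with a median of -0.89, and 65 were at least 2-fold lower (0.684% of all). On day 18, 108 were lower (56.5% of all) with a median of -0.17, and 1 was at least 2-fold lower (0.101% of all). The medians over all single-symbol probes were 0.03, -0.03 and -0.04 on these days. The difference was thus already wide on day 4, 4 days before the arrays that chose the members, and narrow on days 2 and 18. Each of these days had a single array per cassette. The day 18 cells were those still mCherry-positive, so a later time and a narrower selection of cells cannot be told apart.
On each of the 3 days 85 members were lower, against 19.1% of all single-symbol probes, and no member was at least 2-fold lower on all 3. The 4 members at least 2-fold lower on both day 2 and day 4 were Nr0b1, Cadm1, Tmem35a and Fam122b. Alpl, tissue-nonspecific alkaline phosphatase and an early pluripotency marker, was the member at least 2-fold lower on day 18, with signals of 314, 2059, 2337, 5358 and 3288 over days 2, 4, 8, 8 and 18 in low-KLF4 and 358, 622, 609, 1949 and 1480.2 in high-KLF4.

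**Figure D3:**
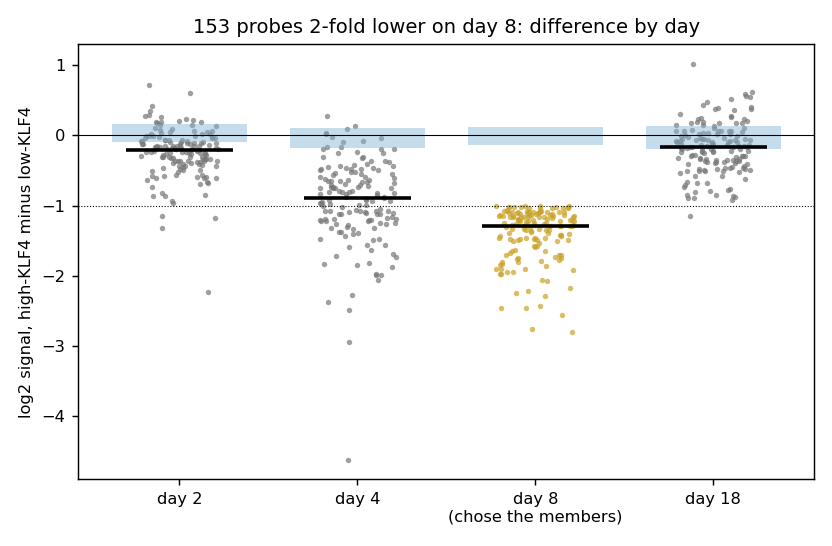
Log2 difference in signal between high-KLF4 and low-KLF4 for the 153 members on each day (1 point per member, black bar at the median). The day 8 values in yellow chose the members, and the blue boxes span the middle 50% of all single-symbol probes. In the order of the days the medians were -0.21, -0.89, -1.29 and -0.17, and the dotted line marks a 2-fold difference.

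In limma, with day and cassette as terms over the arrays of days 2, 4 and 18 and Benjamini-Hochberg adjustment over 23410 probes, no member passed an adjusted p of 0.05 and no probe at all was called lower in high-KLF4 (0%). The smallest adjusted p of a member was 0.124, for Cbs, the first enzyme of transsulfuration. At an unadjusted p under 0.05 the fit had 67 members lower and 1 higher, against 4.5% of all probes lower. This fit takes the difference as equal on all 3 days and has 2 residual degrees of freedom.
With day 18 left out, 17 members were called lower in high-KLF4 on days 2 and 4 and none higher, against 68 probes (0.29%) of all tested. With day 2 or day 4 left out instead, none was called, so the calls rest on those days together and on a fit of 4 arrays with 1 residual and 5.01 prior degrees of freedom. The fit of all 18 arrays, which takes part of its spread from the day 8 arrays that chose the members, called 8 members lower, against 0.115% of all probes.
The 17 were Nr0b1, Cadm1, Pip5k1b, Tmem35a, Bcl11a, Fam122b, Slain1, Myb, Fndc4, Cdca7, Pde3b, Tenm3, Bcl2, Sema3e, Cbs, Kyat3 and H1f1. Nr0b1 (DAX1), an orphan nuclear receptor of the pluripotency network, had signals of 432 and 2233 on days 2 and 4 in low-KLF4 and 91.8 and 91 in high-KLF4, a log2 difference of -3.43 (SE 0.50; limma adjusted p = 0.0293). Its high-KLF4 signal was 1088 and 1354 on day 8 and 1453 on day 18, against 2658, 2785 and 2112 in low-KLF4, so the difference was widest on day 4, before the day that chose it.
Cadm1 had signals of 424 and 1011 on days 2 and 4 in low-KLF4 against 187 and 194 in high-KLF4 (log2 difference -1.78, SE 0.26; limma adjusted p = 0.0313). On day 18 it stood at 778 in low-KLF4 and 813 in high-KLF4. Tmem35a, a chaperone of nicotinic acetylcholine receptors also known as NACHO, gave the lowest adjusted p of the members in this fit, with signals of 1051 and 915 against 419.8 and 294 (log2 difference -1.48, SE 0.12; limma adjusted p = 0.00594). It went down in both cassettes, to 114 and 89.7 on day 18.
Others of the 17 code for a haematopoietic transcription factor, Myb (log2 difference -1.05; limma adjusted p = 0.0207), a secreted fibronectin type III protein, Fndc4 (-1.03; adjusted p = 0.0153), and a MYC-responsive cell division gene, Cdca7 (-0.95; adjusted p = 0.0339). Transsulfuration and kynurenine enzymes were represented by Cbs (-0.76; adjusted p = 0.0253) and Kyat3 (-0.75; adjusted p = 0.043). The linker histone H1f1 had the smallest difference of the 17 (-0.71; adjusted p = 0.0268).

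The members reached their day 8 gap in several ways. From day 2 to the day 8 mean, 62 were at least 2-fold up in low-KLF4 while high-KLF4 stayed within 2-fold. A further 7 were at least 2-fold up in both cassettes (Alpl, Bex4, Foxi3, Lama1, Myb, Nr0b1 and Sh3rf2). In 13, low-KLF4 stayed within 2-fold and high-KLF4 was at least 2-fold down, and Tmem35a was down in both. The remaining 70 stayed within 2-fold in both cassettes. These counts use the day 8 values that chose the members and are a description only.
Tmem47, a membrane protein of cell junctions, shows the form in which high-KLF4 dipped, with low-KLF4 signals of 3136, 3082, 2687, 3238 and 3089.8 over days 2, 4, 8, 8 and 18 and high-KLF4 signals of 2812, 1955, 1614, 678 and 3067. Low-KLF4 was level, and the cells still mCherry-positive in high-KLF4 on day 18 stood at that level.
Between day 18 and day 2, with both cassettes together, 46 members rose (9.18% of all probes were called higher) and 13 fell (13% were called lower). The largest rises were those of Enpp3 (log2 3.86, SE 0.21; limma adjusted p = 0.000926), Cecr2, a bromodomain chromatin factor (3.74, SE 0.29; adjusted p = 0.00186), Apoe, apolipoprotein E (3.58, SE 0.15; adjusted p = 0.0006), and Mdk, the growth factor midkine (3.44, SE 0.13; adjusted p = 0.000437). The largest decreases were those of Ano3, an anoctamin membrane protein (-2.75, SE 0.12; limma adjusted p = 0.000619), Tmem35a (-2.71, SE 0.31; adjusted p = 0.0049) and Shisa3, an antagonist of WNT and FGF receptor maturation (-2.01, SE 0.44; adjusted p = 0.0302).
Shisa3 had signals of 693, 2351, 2537, 2468 and 208 over days 2, 4, 8, 8 and 18 in low-KLF4 and 1049.7, 946, 1017, 972 and 216 in high-KLF4. It was therefore the brighter in high-KLF4 on day 2, the dimmer on days 4 and 8, and level on day 18.

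No difference between the iPSC clones of the 2 cassettes was detected for the members. In limma over the 8 reference arrays no member was called between them. None of the 23410 probes was called in either direction (0%), so this was not particular to the members. At an unadjusted p under 0.05, 7 members were lower in the high-KLF4 clones (Elmo1, Slc27a2, Sema3e, Foxi3, Tspan12, Pim2 and Nexmif), against 1.16% of all probes, and none was higher. For all of these but Tspan12, clone H10 was dimmer than A10. Pim2 had signals of 1416 in A10 and 781 in H10, against 2106 and 1488 in A7 and A9. With 2 clones per cassette, a trait of 1 clone and one of the cassette cannot be told apart. All 153 clone means lay within 2-fold of each other. From the day 8 mean of high-KLF4 to the high-KLF4 clones, 68 members were at least 2-fold up. On day 18, 46 were at least 2-fold above the high-KLF4 day 8 mean, of which 37 also were in the clones. These rises start from the day 8 arrays that chose the members, so the choice partly sets them and they are a description only. The high-KLF4 clones were within 2-fold of the mESC mean for 141 members and the low-KLF4 clones for 139. No share over all probes was taken for any of these 2-fold counts.
Against mESCs the 4 clones together were higher for 41 members (8.29% of all probes) and lower for 10 (6.09%). Fndc3c1 led the first, with signals of 1096, 1125, 1054 and 671 in clones A7, A9, A10 and H10 and 314 and 240.4 in mESCs (log2 1.81, SE 0.18; limma adjusted p = 0.000936). Sema6a, a transmembrane semaphorin, and Myb were also higher in the clones (log2 1.69 and 1.66; limma adjusted p = 0.000703 and 9.57e-05). Necab1, a neuronal calcium-binding protein, led the second (log2 -2.27, SE 0.19; limma adjusted p = 0.000585). These counts depended on single arrays: without the second mESC array 27 members were higher and 4 lower, without A7, A10 or H10 in turn 6 were lower, and in the fit of all 18 arrays 11 were higher and 3 lower.

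Between the end state and epithelium, more members sided with mESCs. Of the 153, 92 were higher in mESCs than in keratinocytes (25.8% of all probes) and 30 were higher in keratinocytes (22.3%). At least 2-fold differences were seen for 59 and 14 of the member means, and the other 80 lay within 2-fold. For these 2-fold counts no share over all probes was taken. Nr0b1 had signals of 5555 and 5664 in mESCs and 57.5 and 48.9 in keratinocytes (log2 keratinocyte minus mESC -6.73, SE 0.13; limma adjusted p = 2.28e-08). Enpp3 had 2626 and 2111 against 41.6 and 43.4 (-5.79, SE 0.11; adjusted p = 2.08e-08), and Fam169a 1955 and 2330.5 against 55.3 and 59.6 (-5.22, SE 0.10; adjusted p = 2.2e-08). Zic5 and Zic2 belonged with these, at log2 -4.48 and -4.18 (limma adjusted p = 2.83e-07 and 3.97e-07).
In the other direction, Sh3rf2, a RING finger scaffold protein, had signals of 115 and 109.5 in mESCs and 1367 and 858 in keratinocytes (log2 3.27, SE 0.22; limma adjusted p = 7.75e-06). Bmp7, a bone morphogenetic protein, had 313 and 277 against 2428 and 2173 (2.96, SE 0.21; adjusted p = 1.21e-05), and Stard10, a lipid transfer protein of epithelial cells, 708 and 708 against 3449 and 3258 (2.24, SE 0.08; adjusted p = 2.41e-07). Sh3rf2 had day 8 signals of 566 and 2802 in low-KLF4 and 261 and 771 in high-KLF4, with the second array of each cassette the brighter.
For 29 members the low-KLF4 day 8 mean was at least 2-fold above the clones of both cassettes, the mESCs and the keratinocytes alike. The low-KLF4 day 8 arrays helped to choose the members, so this count and its split by role are a description only. No share over all probes was taken for it. Pllp had 841 and 1160.5 on day 8 in low-KLF4 and between 99.1 and 191 on the 8 reference arrays, Lrmp 316 and 419.5 against 64.3 to 108, Gabra2 223 and 182 against 39.7 to 48, and Sv2b 184 and 469 against 55.7 to 68.5. Foxd1 and Shisa3 stood above the references in both cassettes, with high-KLF4 day 8 signals of 461 and 382 and of 1017 and 972. Of the 16 neural receptor and synapse genes 8 were of this kind, and 9 of the 31 signalling genes. MEFs were not among the arrays, so a level kept from the donor cells and one gained in the intermediates are separated only by the days: Lrmp stood at 65.2 on day 2 and Sv2b at 77.4, whereas Tspan12 stood at 208 and Gabra2 at 119.5.

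**Figure D4:**
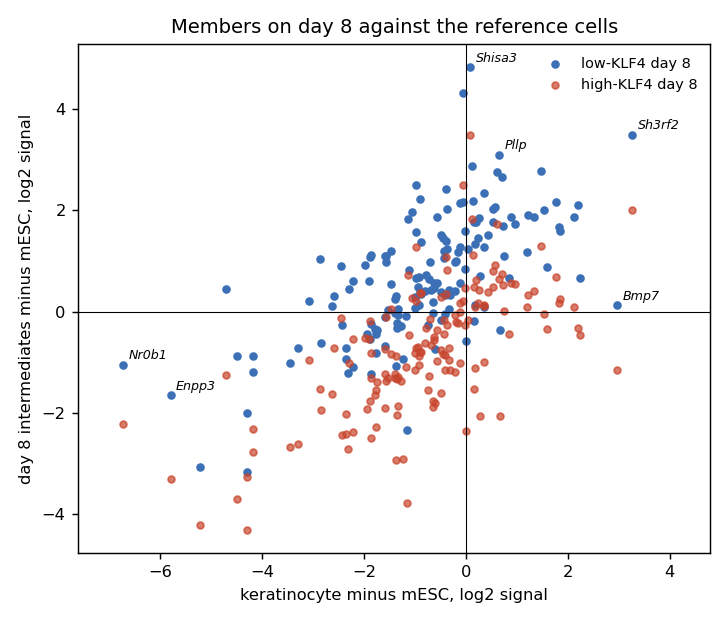
Members on day 8 against the reference cells: the x axis is the log2 signal of keratinocytes minus mESCs and the y axis the day 8 mean minus mESCs, with each member drawn once for low-KLF4 (blue) and once for high-KLF4 (red). By the choice of members every red point lies below its blue partner; 59 members lie at -1 or below on the x axis and 14 at 1 or above, and names mark the low-KLF4 points.

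X-linked genes were frequent among the members. Of the 153 probes 19 (12.4%) lay on the X chromosome, against 790 of 21698 located single-symbol probes (3.64%), 3% of the brighter 70% of these probes, and 1.74% of the probes at least 2-fold higher in high-KLF4. The X chromosome had the highest share of its probes among the members of any chromosome (2.41%), followed by chromosome 12 (1.4%). With the second low-KLF4 array left out 12 of the 19 remained at least 2-fold lower. This share is part of what the day 8 values chose and was not tested.
The 19 were Armcx4, Arxes1, Bex4, Esx1, Fam122b, Fndc3c1, Gria3, Hmgn5, Lpar4, Nexmif, Nr0b1, Pcsk1n, Pdzd4, Pim2, Septin6, Slc38a5, Spin2c, Tmem35a and Tmem47. On day 4, which did not choose them, all 19 were lower in high-KLF4 with a median log2 difference of -1.26, against -0.85 for the 134 autosomal members and -0.05 for all 790 X-linked probes. On day 18 the medians were -0.15 and -0.17, close to each other. Xist, the RNA of the silenced X, had signals between 44.1 and 51.1 on all 10 arrays of intermediates, between 88.6 and 212 in clones and mESCs, and of 4076.6 and 46.6 in the 2 keratinocyte arrays.
Esx1, a placental homeobox gene, had signals of 471 in low-KLF4 and 119 in high-KLF4 on day 4, and of 191 and 481 against 109 and 86.8 on day 8. Pcsk1n, the inhibitor proSAAS of a prohormone convertase, had 2535 against 637 on day 4 and 2043 and 2771 against 850.0 and 877 on day 8. Gria3, an AMPA receptor subunit, was closer to level, with 1369 against 992 on day 4 and 1414 and 1316 against 920.2 and 487 on day 8.

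**Figure D5:**
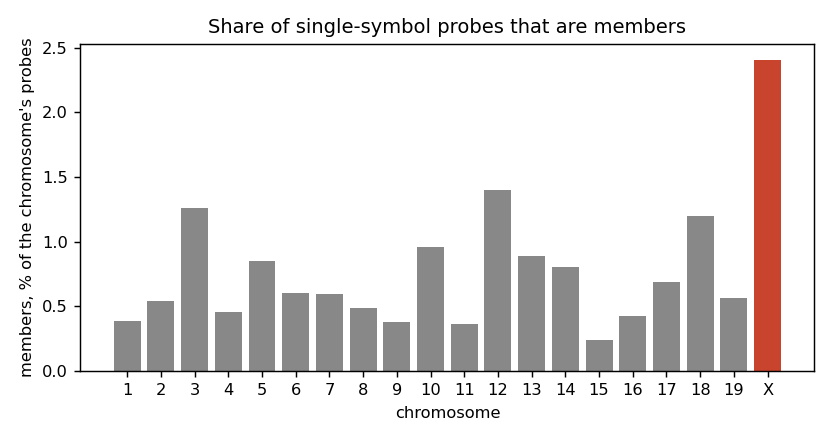
Members as a percentage of the single-symbol probes on each chromosome. The X chromosome (red) stood at 2.41% and chromosome 12 next at 1.4%.

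Some members were neighbours. Zic5 and Zic2 lay 9.7 kb apart, En2, a midbrain homeobox gene, and Cnpy1, an FGF signalling regulator of the same region, 28.6 kb apart, Shisa3 and Atp8a1, a phospholipid flippase, 4.2 kb, Nemp1 and Tac2, the neurokinin B precursor, 23.4 kb, Pim2 and Pcsk1n 36.4 kb, and Arxes1 and Bex4 104 kb, all as gaps between RefSeq gene bounds.
En2 had day 8 signals of 151 and 219.9 in low-KLF4 and 68.3 and 63.7 in high-KLF4, and Cnpy1 529 and 762 against 174 and 166. Both were lower on day 4, at 149.7 against 75.5 for En2 and 398 against 112 for Cnpy1. Neighbours did not always share a course: Atp8a1 had 1024 and 1245 on day 18 in low-KLF4 and high-KLF4, where Shisa3 had 208 and 216.
The glutathione S-transferase genes Gstm5, Gstm7, Gstm6 and Gstm4 formed a run of 4 members on chromosome 3. They belong to 1 gene family, and whether a probe reads more than 1 of them was not tested, so their values are uncertain as those of separate genes. Their day 8 log2 differences were -1.29, -1.27, -1.09 and -1.08, and on day 4 they were -0.65, -0.44, 0.13 and -0.20. All 4 day 4 differences were smaller in size than the members' median of -0.89.

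The other genes of the members' pathways are given by counts and medians, which the choice of members bounds on day 8, since every single-symbol probe 2-fold lower had left the lists. Of 39 neural patterning factors measured, 10 genes were members. Of the 32 other probes 8 were lower in high-KLF4 on each of days 2, 4 and 18, none was called in limma over those days, and their median log2 difference was -0.10 on day 4 and -0.08 on day 8. Of 19 AMPA and GABA-A receptor subunits and GRIP genes 3 were members, and the 18 other probes had medians of -0.04 and -0.003. Of 43 WNT ligands, receptors and TCF/LEF factors 2 were members (Lef1 and Lrp4), with medians of 0.06 and 0.03 for the 42 other probes. Of 31 semaphorins, plexins and neuropilins 3 were members (Sema3e, Sema6a and Sema6d), with medians of 0.07 and 0.12 for the 30 others.
Among 22 glutathione S-transferases 4 were members, and the 19 other probes had a median of 0.07 on day 4 and -0.23 on day 8. Of 24 NOTCH pathway genes 3 were members, of 15 synaptic vesicle genes 2, of 11 genes of fatty acid transport and acyl-CoA synthesis 3, and of 13 cell death regulators 3. For the other probes of these 4 lists the day 8 medians were -0.15, -0.11, 0.07 and -0.07. In limma over days 2, 4 and 18 none of the 195 other probes of the 9 lists was called in either direction, and over days 2 and 4 alone 2 were called lower (Mgst1 and Syt1) and 7 higher, WNT ligand Wnt7a (log2 2.41) among them.

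The threshold cut through a continuous range. Just inside lay Adamtsl1, a secreted ADAMTS-like protein, with day 8 signals of 473 and 355.5 in low-KLF4 against 333 and 125.5 in high-KLF4, and Slc38a5, an amino acid transporter, with 171 and 191 against 90.1 and 90.2. Just outside lay 2 probes of Hmgn2, a nucleosome-binding protein, with 4246 and 4192 against 2307 and 1942 and with 4513 and 4488 against 2460.4 and 2074. Another, dimmer Hmgn2 probe was a member, so the gene stood on both sides. Hmgn2 has many processed copies in the genome, and which of them each probe reads is uncertain.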

How the data were processed

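The deposited table holds linear signal intensities of 28853 probes on 18 arrays, which the authors normalized with RMA in GeneSpring; log2 was taken here. RMA shares information across arrays and compresses low signals, and no background or depth measure comes with the table, so the number of arrays limits the precision. Of the probes, 21789 had 1 gene symbol, 1621 several and 5443 none; 21698 of the first were named and located through RefSeq (GRCm38.p6). Members, gene lists and rules for named genes were chosen with earlier results of these data known. Named genes were the 10 largest day 8 differences with both high-KLF4 arrays below both low-KLF4 arrays, and the 3 largest per role list. Others were probes at the threshold, the largest differences between keratinocytes and mESCs, X-linked and neighbouring members, and genes past a test's threshold. Tests used limma 3.58.1 in R 4.3.3 on log2 intensities over 23410 probes with a symbol, Benjamini-Hochberg adjustment and a threshold of 0.05; day and cassette were additive over 6 arrays (2 residual and 3.32 prior degrees of freedom), and the 8 reference arrays were fitted by group (4 and 3.71). Fits were tested on simulated data with independent noise and, for the days, an equal difference on each day. The members' differences were not equal over days, so the simulation does not cover that case. P-values measure the spread between these arrays only, and days 2, 4 and 18 had 1 array per cassette. Tables were made in Python 3.11.15 with pandas 2.3.3. Alternatives were limma-trend, a second quantile normalization, leaving out the dimmest 30% of probes, the fit of all 18 arrays, adjustment over all probes and leaving out arrays or days; leaving the second low-KLF4 day 8 array out of the X-linked count was added after seeing the data.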

Additional observations from a re-analysis of the deposited data

Results flagged for a closer look

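Tox3, an HMG-box nuclear protein, was picked out because its cassettes differed in opposite directions on different days. Its signal was 354 in low-KLF4 and 154 in high-KLF4 on day 4 (log2 difference -1.20), and 442 and 896 on day 18 (1.02), a change of 2.22 on the log2 scale between the days. Each day had 1 array per cassette, so this difference was not tested. Tox3 was the only one of the 153 members at least 2-fold lower on one of days 2, 4 and 18 and at least 2-fold higher on another. Its signals on day 8 were 250.4 and 312 in low-KLF4 and 172 and 108 in high-KLF4, and it stood between 309 and 341 in the clones and at 159.5 and 127 in mESCs.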

How the results depend on the processing

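The number of members was 153 and stayed between 148 and 168 under averaging of linear signals, a second quantile normalization, the filter on dim probes and the use of probes with several symbols. It was 67 when both same-numbered pairs had to be 2-fold lower (replicate block) and between 231 and 399 when 1 day 8 array was left out, which leaves single arrays to set the threshold. X-linked members were 12 without the second low-KLF4 array. Members called lower in high-KLF4 over days 2, 4 and 18 were 0, but 1 with limma-trend, 8 in the fit of all 18 arrays and between 0 and 17 with 1 day left out. Members lower on day 18 than on day 2 were 13, and 25 without day 4; those higher were 46, and 63 without day 4. Members higher in clones than in mESCs were 41, but 11 in the fit of all 18 arrays and between 27 and 46 with 1 reference array left out; those lower were 10, 3 and between 4 and 12. The causes of these shifts were not tested. For keratinocytes against mESCs the counts kept within 1.5 times in every alternative, and the paired fit of their 4 arrays (replicate block) gave 26 higher in keratinocytes and 88 higher in mESCs, while same-numbered arrays of these groups deviated together with r = 0.014 over probes. On day 8 the corresponding r was 0.735.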
